A study of Homo sapiens with 4 samples.

Results

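The genes described here are 36 regulators of mitosis and cytokinesis, taken by symbol from a fixed list: cyclins and their kinase CDK1, mitotic kinases, the chromosomal passenger complex, the anaphase-promoting complex (APC/C) and its targets, chromosome, spindle and cytokinesis proteins, and a pair of transcription factors. All 36 of the list were found among the 63677 genes of the files, and all 36 passed the filter on low counts, as did 19142 genes in all. Total RNA came from H929, an established human multiple myeloma line of malignant plasma cells. The RNA was depleted of ribosomal RNA and sequenced as stranded pairs. Cells had been transduced with short hairpin RNA (shRNA) that targets ILF2, the gene of a double-stranded RNA binding protein (2 libraries), or with a non-silencing shRNA (2 libraries). Both groups were transduced, and the time after transduction, the hairpin sequences whether 1 hairpin or several were used against ILF2, and whether clones were picked are not given in the sources used here. The submitters call the replicates independent without saying what was repeated, so the p-values speak to the spread among these libraries, which may be technical or, with ILF2 shRNA, include a difference between hairpins.

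The libraries held 63459322 and 71359863 counted fragments with ILF2 shRNA and 72977082 and 71389341 with non-silencing shRNA. Levels are in CPM, fragment counts scaled to a common library size, and a log2 change is the log2 ratio of ILF2 shRNA to non-silencing shRNA, given ± SE where an error is printed. ILF2 had 107 and 114 CPM in the ILF2 shRNA libraries, against 717 and 733 CPM in the non-silencing libraries, a log2 change of -2.71 ± 0.07 (edgeR adjusted p = 9.2e-39). Of 10 plasma cell markers, 10 had at least 1 CPM in every library, and their summed level was 14917 and 15026 CPM with ILF2 shRNA and 12698.5 and 12999.5 CPM with non-silencing shRNA. Of 5 T cell markers, 4 stayed under 1 CPM in every library and CD3E did not, so that the summed level was 16.2 and 17.2 CPM against 8.30 and 7.52 CPM. The myeloid, fibroblast, erythroid and endothelial markers summed to under 1 CPM per list in every library. The endothelial sum lacks PECAM1, which had no value here. Mitochondrial genes took 0.516% and 0.463% of fragments with ILF2 shRNA and 0.351% and 0.307% with non-silencing shRNA. The part of these differences in the results that follow was not tested.

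Mitosis is driven by cyclin A and cyclin B bound to the kinase CDK1, and is ended when the APC/C, a ubiquitin ligase, marks securin and the cyclins for destruction. Separase then cuts cohesin, the passenger complex and centralspindlin move to the spindle midzone, and a ring of anillin, myosin and septins splits the cell. Most of these genes are transcribed late in the cycle, under FOXM1, B-Myb (the product of MYBL2) and the MuvB core, which binds a promoter element called the cell cycle genes homology region (CHR). Their summed RNA is widely used as a gauge of proliferation in myeloma and other tumours.

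With ILF2 shRNA, 25 of the 36 genes fell and 0 rose, while 10.1% of all tested genes fell and 10.2% rose. These calls rest on the quasi-likelihood test of edgeR with Benjamini-Hochberg adjusted p-values under 0.05, and the same test gave every edgeR value that follows. Before adjustment, 29 were lower and 1 higher at a p under 0.05, beside 15.4% and 15.5% of all genes. DESeq2 also called 25 and 0, beside 6.58% and 7.09% of all genes. The log2 changes of the 25 genes that fell ran from -0.52 to -0.20. The median log2 change of the 36 genes was -0.26, against -0.0015 for all genes tested, and the range ran from -0.52 for ANLN to 0.15 for PTTG1. Both ILF2 shRNA libraries lay below both non-silencing libraries in 32 of the 36 genes, as they did in 28.0% of all genes tested. Among tested genes in the same range of abundance, 12.02% fell. With one library left out, 15 of the 36 fell when it was non-silencing replicate 1, beside 5.39% of all genes in that fit, and 12 when it was non-silencing replicate 2, beside 5.36%. Without ILF2 shRNA replicate 1 or replicate 2 the count was 25 each time, beside 9.13% and 7.44% of all genes; 1 gene, HMMR, rose in the fit without ILF2 shRNA replicate 2, beside 7.82%. In such a fit the lone library of a group is assumed to vary like the other group. The median of the 36 genes lay between -0.28 and -0.26 in all 4 fits. In bulk RNA, fewer cells in mitosis and less of each RNA per cell cannot be told apart.

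**Figure D1:**
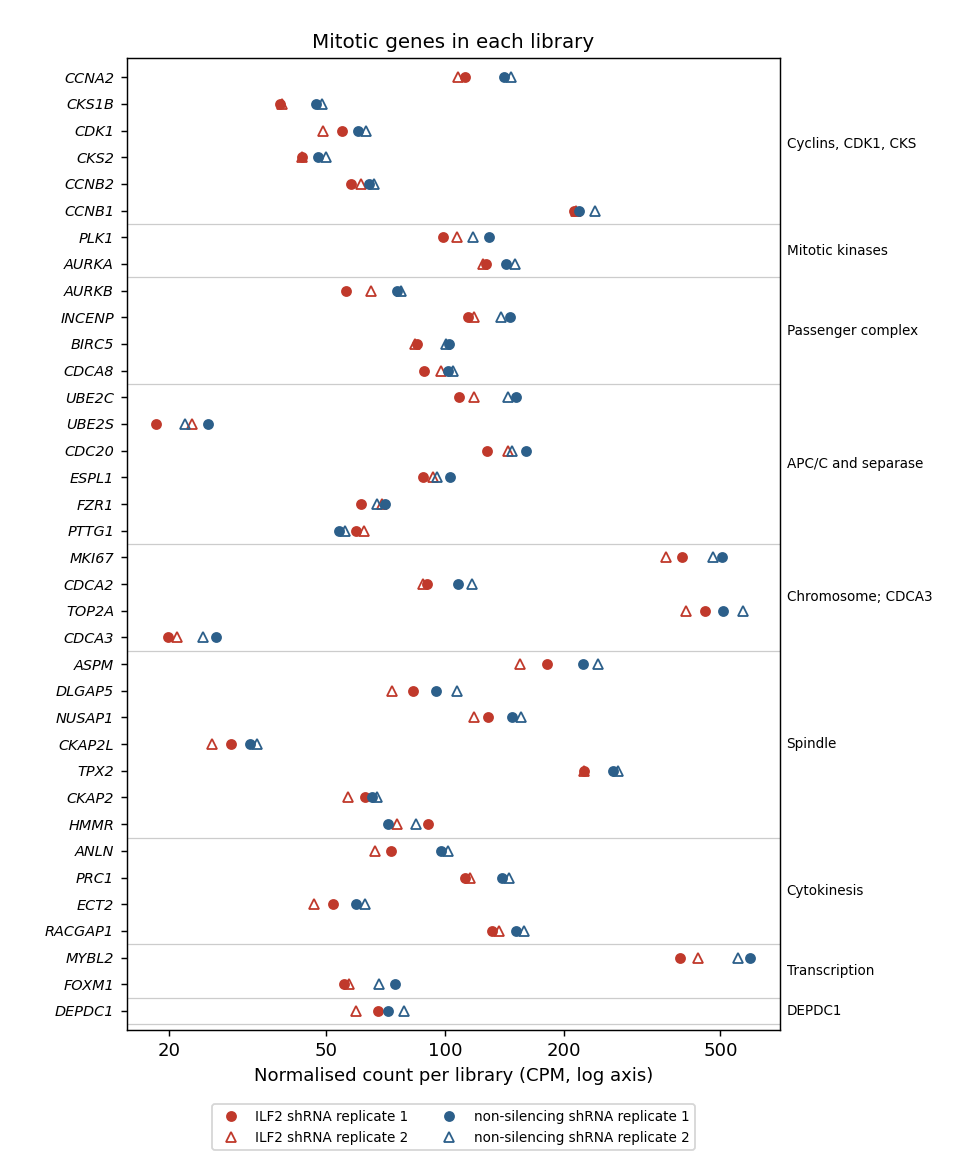
Normalised counts (CPM, log axis) of the 36 mitotic genes in each of the 4 libraries, grouped by role, with filled circles for replicate 1 and open triangles for replicate 2. In 32 genes both ILF2 shRNA libraries sit left of both non-silencing libraries; PTTG1 shows the opposite order, and FZR1, UBE2S and HMMR overlap.

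Most of the promoters found for these genes hold 1 or more of a few short sequences. The genes were not chosen by sequence, but late cell cycle genes are already known for the CHR, so the shares below are a description. They stand beside shares of all RefSeq genes, whether or not a gene was tested here. RefSeq's table of the 250 bases before and 50 after the gene start (GRCh38.p14) held 29 of the 36 genes. The genes it lacked, AURKA, TPX2, BIRC5, CDCA2, UBE2C, RACGAP1 and FOXM1, all fell with ILF2 shRNA. The CHR, searched as TTTGAA on both strands, was found in 22 of the 29 (75.9%) and in 18.2% of the 27305 genes in the table. A match starting within 60 bases of the gene start was present in 18 of 29 (62.1%) and in 6.26% of all genes. The CCAAT box, bound by the factor NF-Y and searched as CCAAT on both strands, was found in 25 of 29 (86.2%) and 39.7% of all genes, and both motifs together in 20 of 29 (69.0%) and 7.26%. The CHR variant TTTAAA, which reads the same on both strands, was found in 7 of 29 (24.1%) and 14.5% of all genes. Of the 18 genes with a promoter that fell, 15 held TTTGAA, as did 7 of the 11 that did not pass the test. These matches describe the letters in this window and do not show that a site is used. The sequences of 6 genes are shown because they hold the 3 largest falls (ANLN, ASPM, MYBL2), the kinase gene PLK1, and CCNB2 and HMMR, which hold TTTGAA and CCAAT and did not pass the test. Capitals mark these 3 motifs in either orientation, and each sequence runs 5′ to 3′ on the strand of its gene.
ANLN (chr7:36389612-36389911, plus strand): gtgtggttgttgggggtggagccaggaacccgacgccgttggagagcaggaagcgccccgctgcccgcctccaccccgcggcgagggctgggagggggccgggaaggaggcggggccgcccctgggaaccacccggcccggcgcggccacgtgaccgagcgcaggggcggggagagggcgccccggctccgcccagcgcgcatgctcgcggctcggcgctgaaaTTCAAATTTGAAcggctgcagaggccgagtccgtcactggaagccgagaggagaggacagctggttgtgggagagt
ASPM (chr1:197146620-197146919, minus strand): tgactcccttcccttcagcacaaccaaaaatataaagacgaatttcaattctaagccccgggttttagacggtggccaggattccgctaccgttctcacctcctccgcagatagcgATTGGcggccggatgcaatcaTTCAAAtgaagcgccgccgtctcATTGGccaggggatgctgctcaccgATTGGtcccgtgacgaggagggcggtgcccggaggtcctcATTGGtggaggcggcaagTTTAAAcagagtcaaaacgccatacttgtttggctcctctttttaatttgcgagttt
MYBL2 (chr20:43666864-43667163, plus strand): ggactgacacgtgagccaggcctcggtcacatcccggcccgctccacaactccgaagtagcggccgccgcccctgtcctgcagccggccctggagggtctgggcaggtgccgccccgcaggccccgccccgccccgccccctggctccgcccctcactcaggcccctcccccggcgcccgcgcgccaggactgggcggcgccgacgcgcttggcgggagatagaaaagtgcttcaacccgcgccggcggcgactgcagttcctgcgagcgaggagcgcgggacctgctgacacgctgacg
PLK1 (chr16:23678639-23678938, plus strand): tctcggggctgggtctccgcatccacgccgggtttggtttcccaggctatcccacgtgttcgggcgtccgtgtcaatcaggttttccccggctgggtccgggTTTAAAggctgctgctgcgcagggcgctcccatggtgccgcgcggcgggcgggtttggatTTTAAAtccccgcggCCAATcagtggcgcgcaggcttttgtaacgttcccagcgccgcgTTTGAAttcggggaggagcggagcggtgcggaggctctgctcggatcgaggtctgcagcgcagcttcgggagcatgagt
CCNB2 (chr15:59104896-59105195, plus strand): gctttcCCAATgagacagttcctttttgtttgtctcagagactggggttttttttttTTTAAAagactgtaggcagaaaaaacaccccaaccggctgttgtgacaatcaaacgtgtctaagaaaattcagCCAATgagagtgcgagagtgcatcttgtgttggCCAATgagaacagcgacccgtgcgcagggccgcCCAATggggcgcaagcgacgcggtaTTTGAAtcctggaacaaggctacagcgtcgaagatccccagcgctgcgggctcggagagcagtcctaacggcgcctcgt
HMMR (chr5:163460382-163460681, plus strand): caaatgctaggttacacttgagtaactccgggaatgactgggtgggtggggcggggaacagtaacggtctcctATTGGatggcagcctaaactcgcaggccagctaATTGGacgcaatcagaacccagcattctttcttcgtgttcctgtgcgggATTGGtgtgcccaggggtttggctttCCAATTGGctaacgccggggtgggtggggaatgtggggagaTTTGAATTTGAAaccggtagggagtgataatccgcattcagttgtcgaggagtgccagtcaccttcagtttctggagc
In PLK1 and CCNB2 a TTTGAA match begins at position -29 from the start, and in HMMR 1 of 2 adjoining matches begins at -28. ANLN has 2 adjoining matches in opposite orientation, at -26 and -20, without a CCAAT box. MYBL2 has none of the 3 motifs in this window.

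**Figure D2:**
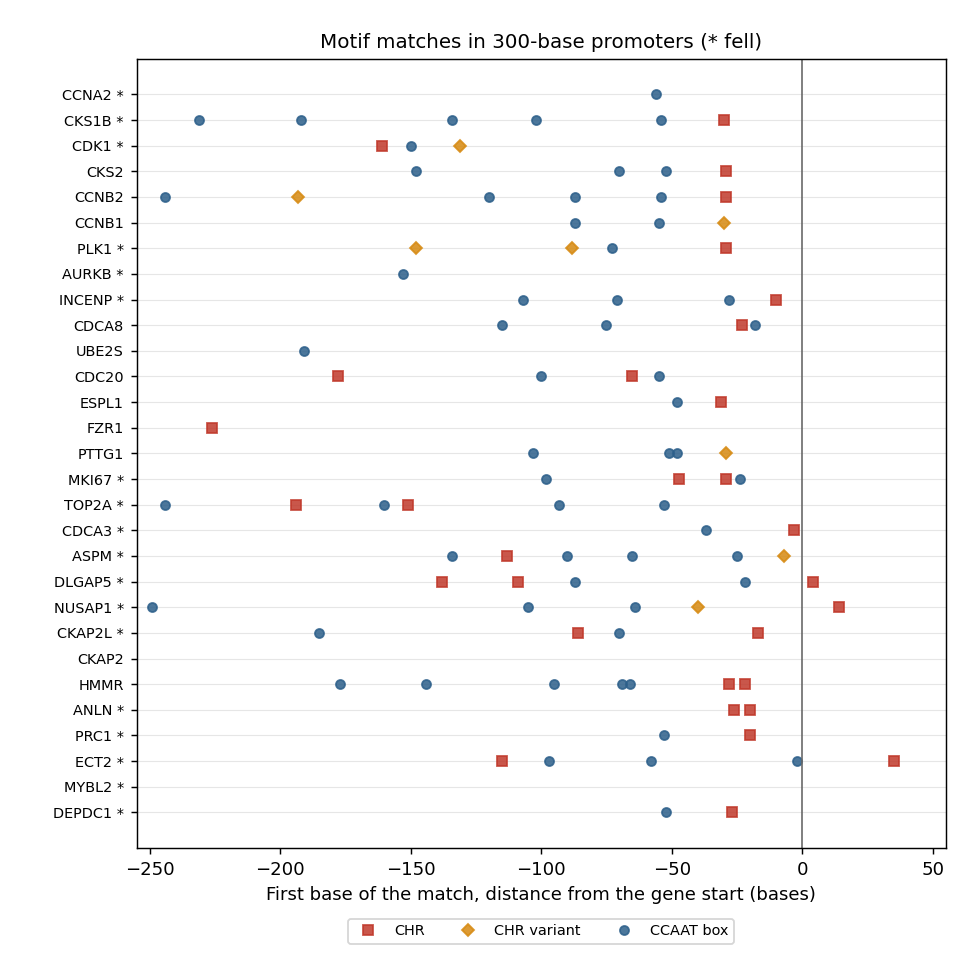
First base of each motif match in the RefSeq promoters of 29 mitotic genes, as distance from the gene start in bases, with an asterisk on genes that fell; the first promoter of each gene is drawn. TTTGAA matches (CHR) gather just before the start, and 18 of the 29 genes have one within 60 bases of it in any of their promoters.

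Among the cyclins and their kinase, cyclin A2 fell and the B-type cyclins did not pass the test. CCNA2, which encodes the cyclin that acts from S phase into early mitosis, had 113 and 108 CPM in the ILF2 shRNA libraries, against 141 and 147 CPM in the non-silencing libraries. Its log2 change came to -0.39 ± 0.07 (edgeR adjusted p = 1.38e-05), a fall of 23.5% with groups that did not overlap. CCNB1, the main mitotic cyclin gene, had 213 and 215 CPM with ILF2 shRNA and 219.5 and 239.8 CPM with non-silencing shRNA. That was a log2 change of -0.10 ± 0.07 (edgeR adjusted p = 0.321). CCNB2 had 58.0 and 61.4 CPM against 64.4 and 66.1 CPM, a log2 change of -0.13 ± 0.07 (edgeR adjusted p = 0.218). The groups were lower without overlap for both B-type cyclins, by less than the test could call. Whether CCNA2 and the B-type cyclins differed in their change was not tested.

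CDK1 itself had 54.8 and 49.0 CPM with ILF2 shRNA and 60.2 and 62.99 CPM with non-silencing shRNA, a log2 change of -0.25 ± 0.07 (edgeR adjusted p = 0.0103). This call held in 1 of the 4 fits that left out a library, that without ILF2 shRNA replicate 1, and the adjusted p in the others ran from 0.066 to 0.21. CKS1B, for a small subunit that docks CDK complexes to their substrates and a known high-risk gene of myeloma, lies on chromosome 1 as ILF2 does. It had 38.3 and 38.7 CPM against 47.2 and 48.8 CPM, a log2 change of -0.32 ± 0.07 (edgeR adjusted p = 0.000867, or 0.054 without non-silencing replicate 2). Its paralogue CKS2 had 43.5 and 43.3 CPM against 47.7 and 49.8 CPM, a log2 change of -0.17 that did not pass (edgeR adjusted p = 0.101).

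PLK1, AURKA and the aurora A activator gene TPX2 all fell. PLK1, whose product drives centrosome maturation and mitotic entry, had 98.8 and 108 CPM in ILF2 shRNA cells and 129 and 118 CPM in non-silencing cells, a log2 change of -0.26 ± 0.07 (edgeR adjusted p = 0.00422, or 0.26 without non-silencing replicate 1). AURKA, the gene of the spindle pole kinase aurora A, had 127 and 125 CPM against 142.6 and 150.4 CPM, a log2 change of -0.22 (edgeR adjusted p = 0.0148). Its activator gene TPX2 had 225.8 and 225.5 CPM against 267 and 275 CPM, a log2 change of -0.26 (edgeR adjusted p = 0.00219). Neither of these calls held without a non-silencing library: AURKA had an adjusted p of 0.095 and 0.32, and TPX2 of 0.058 and 0.13, without replicate 1 and replicate 2 in that order.

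The chromosomal passenger complex corrects faulty attachments of chromosomes and later steers cytokinesis, and 3 of its 4 genes fell. AURKB, for its kinase aurora B, had 56.2 and 64.9 CPM with ILF2 shRNA and 75.7 and 77.4 CPM with non-silencing shRNA. The log2 change came to -0.34 ± 0.07 (edgeR adjusted p = 0.000346), a fall of 20.9%. INCENP, which encodes the scaffold, showed a log2 change of -0.29 (edgeR adjusted p = 0.0011, or 0.11 without non-silencing replicate 1). BIRC5, the survivin gene, had one of -0.26 (edgeR adjusted p = 0.00316, but 0.1 and 0.068 without either non-silencing library). CDCA8, which encodes borealin, had 88.3 and 97.9 CPM against 102 and 105 CPM, a log2 change of -0.15 that did not pass (edgeR adjusted p = 0.123, or 0.028 without ILF2 shRNA replicate 2).

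Of 6 genes for the APC/C's activators, its ubiquitin-conjugating enzymes and the securin and separase pair, only UBE2C fell. UBE2C, which starts ubiquitin chains on APC/C targets, had 109 and 118 CPM with ILF2 shRNA and 152 and 145 CPM with non-silencing shRNA, a log2 change of -0.38 ± 0.07 (edgeR adjusted p = 1.8e-05). CDC20, the activator of the APC/C in early mitosis, had 128 and 144 CPM against 160.4 and 148 CPM. Its log2 change of -0.18 ± 0.07 missed the threshold at an edgeR adjusted p of 0.0599, and passed it without ILF2 shRNA replicate 2 at 0.0048. UBE2S, which lengthens the chains, had 18.6 and 22.9 CPM against 25.1 and 21.9 CPM, so its groups overlapped; without ILF2 shRNA replicate 2 it was called lower (edgeR adjusted p = 0.0055). The separase gene ESPL1 had a log2 change of -0.13 (edgeR adjusted p = 0.193). FZR1, the late activator CDH1, is not itself restricted to mitosis and had 61.1 and 69.3 CPM against 70.4 and 67.2 CPM, with groups that overlapped. The securin gene PTTG1 had 59.6 and 62.4 CPM with ILF2 shRNA and 54.0 and 55.7 CPM with non-silencing shRNA. It was the 1 member whose ILF2 shRNA libraries both lay above the non-silencing ones, at a log2 change of 0.15 ± 0.07 (edgeR adjusted p = 0.13); 28.5% of all genes tested showed that order.

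MKI67, TOP2A and CDCA2, which encode proteins of mitotic chromosomes, all fell, as did CDCA3, whose product is known from Xenopus to promote mitotic entry through the breakdown of WEE1. MKI67, the gene of the proliferation marker Ki-67 that coats mitotic chromosomes, had 399 and 364 CPM in ILF2 shRNA cells, against 503.5 and 479 CPM in non-silencing cells, a log2 change of -0.36 ± 0.07 (edgeR adjusted p = 2.71e-05). TOP2A, which encodes the topoisomerase that untangles sister chromatids, had 457 and 408 CPM against 508 and 569.8 CPM. For TOP2A this gave -0.32 ± 0.07 (edgeR adjusted p = 0.000353, or 0.16 without non-silencing replicate 2). CDCA2, for a chromatin protein that recruits the phosphatase PP1, and CDCA3 had log2 changes of -0.34 and -0.31. Their edgeR adjusted p were 0.000159 and 0.00355; CDCA2 had 0.062 without non-silencing replicate 2 and CDCA3 had 0.14 without non-silencing replicate 1. CDCA3 was the least abundant member per length, at 3.60 CPM per kb with ILF2 shRNA and 4.47 with non-silencing shRNA.

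**Figure D3:**
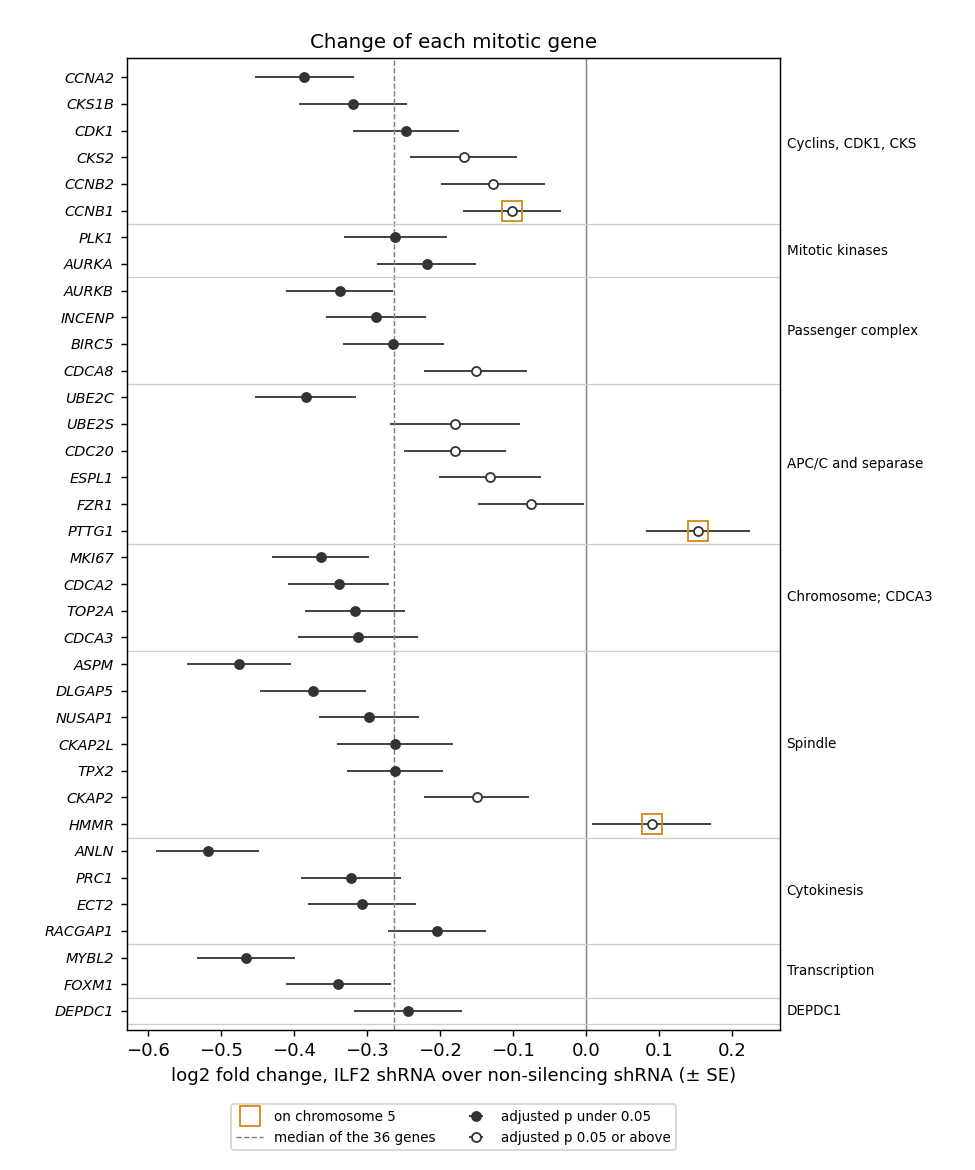
Log2 change (ILF2 shRNA over non-silencing shRNA, ± SE, 2 libraries a group) of the 36 genes by role, filled where the edgeR adjusted p was under 0.05. Points lie around the median of -0.26, and the 3 genes on chromosome 5 (squares) include the 2 values above 0.

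Spindle genes gave both the second largest fall and a member above 0. ASPM, for a spindle pole protein, had 181 and 155 CPM with ILF2 shRNA and 224 and 244 CPM with non-silencing shRNA, a log2 change of -0.48 ± 0.07 (edgeR adjusted p = 5.8e-07) and a fall of 28.1%. DLGAP5, for a protein that stabilises kinetochore fibres, had 83.0 and 73.4 CPM against 95.1 and 108 CPM, a log2 change of -0.37 (edgeR adjusted p = 7.28e-05, or 0.058 without non-silencing replicate 2). NUSAP1, for a microtubule-bundling protein, had a log2 change of -0.30 (edgeR adjusted p = 0.000799, or 0.095 without that library). CKAP2L had one of -0.26 (edgeR adjusted p = 0.0122), a call that held only without ILF2 shRNA replicate 1 and ended in the 3 other fits (adjusted p 0.065 to 0.18). Its relative CKAP2 had a log2 change of -0.15 and did not pass (edgeR adjusted p = 0.144, or 0.037 without ILF2 shRNA replicate 1). HMMR, for a hyaluronan receptor that also binds spindle microtubules, had 90.6 and 75.5 CPM with ILF2 shRNA and 71.6 and 84.6 CPM with non-silencing shRNA, so that its groups overlapped. Its log2 change of 0.09 ± 0.08 (edgeR adjusted p = 0.501) was 0.22 without ILF2 shRNA replicate 2, where it passed (adjusted p = 0.04), and -0.044 without ILF2 shRNA replicate 1.

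Cytokinesis genes fell in 4 of 4 cases, with the largest change of the 36 in ANLN (GRCh37 chromosome 7, 36429415 to 36493400, plus strand). ANLN encodes anillin, the scaffold of the contractile ring. It had 72.9 and 66.5 CPM in ILF2 shRNA cells, against 98.1 and 102 CPM in non-silencing cells, a log2 change of -0.52 ± 0.07 (edgeR adjusted p = 5.53e-08) and a fall of 30.2%. PRC1, for the bundler of midzone microtubules, had 112 and 116 CPM against 139.6 and 145 CPM, a log2 change of -0.32 ± 0.07 (edgeR adjusted p = 0.000244). ECT2, whose product switches on the GTPase RhoA at the cell's equator, had a log2 change of -0.31 (edgeR adjusted p = 0.00129, or 0.09 without non-silencing replicate 2). RACGAP1, a centralspindlin subunit gene, had one of -0.20 (edgeR adjusted p = 0.0233). The RACGAP1 call held only without ILF2 shRNA replicate 2, and its adjusted p in the 3 other fits ran from 0.091 to 0.36.

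Both transcription factor genes fell. MYBL2, the gene of B-Myb, had the highest level per length of the 36, at 155 CPM per kb with ILF2 shRNA and 214 CPM per kb with non-silencing shRNA. Its libraries had 394 and 438 CPM against 595 and 555 CPM, a log2 change of -0.47 ± 0.07 (edgeR adjusted p = 2.2e-07) and a fall of 27.6%. FOXM1, for the forkhead activator of late cell cycle genes, had 55.6 and 57.2 CPM against 74.6 and 68.1 CPM, a log2 change of -0.34 ± 0.07 (edgeR adjusted p = 0.000256, or 0.074 without non-silencing replicate 1). DEPDC1, which is placed in none of the other groups, had 67.7 and 59.4 CPM against 71.7 and 78.9 CPM. Its log2 change came to -0.24 ± 0.07 (edgeR adjusted p = 0.0115), or -0.15 and not called without ILF2 shRNA replicate 2 (adjusted p = 0.2) and -0.17 and not called once non-silencing replicate 2 was left out (adjusted p = 0.35). In all, 8 calls held in each of the 4 fits that left out a library, those of CCNA2, AURKB, UBE2C, MKI67, ASPM, ANLN, PRC1 and MYBL2, and the same 8 held in every other alternative run.

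The 3 members on chromosome 5, CCNB1, PTTG1 and HMMR, were among those that did not fall. Their log2 changes of -0.10, 0.15 and 0.09 stand beside a median of 0.15 for the 900 genes tested on that chromosome. On the other autosomes the medians lay between -0.036 and 0.0090. The 33 members there had a median of -0.29, and 25 of them fell. Set against their chromosome's median, CCNB1 was lower, HMMR was lower by less than its SE, and PTTG1 was level with it. The part of the chromosome in the values of these genes was not tested, and no test was made of the difference between the 3 members and the rest.

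Replicates of 1 group differed in a way that followed the base composition of these genes. The GC content of the longest transcript ran from 34.6% for DEPDC1 to 63.8% for FZR1. Across the 36 genes, which share the same 4 libraries, the log2 ratio of replicate 1 to replicate 2 had a Pearson correlation with GC content of -0.83 with ILF2 shRNA and 0.82 with non-silencing shRNA (Spearman -0.85 and 0.82). AT-rich genes such as HMMR, ASPM and TOP2A were higher in ILF2 shRNA replicate 1 and lower in non-silencing replicate 1, and GC-rich genes such as UBE2S, FZR1 and MYBL2 were the other way round. The change between groups showed little such relation (Pearson 0.05). With GC content and exon length fitted as trends per library, 32 of the 36 genes fell and 1 rose, beside 14.9% of all genes that fell and 14.8% that rose (edgeR adjusted p under 0.05). The median log2 change was -0.28 in that fit, and the gene that rose was PTTG1, by 0.13 (edgeR adjusted p = 0.0309). CCNB1 and CCNB2 were then called lower, with log2 changes of -0.12 and -0.16 (edgeR adjusted p = 0.0317 and 0.0139), and CDC20 with -0.18 (edgeR adjusted p = 0.00199). CKS2, CDCA8, ESPL1 and CKAP2 were the other members that gained a call, while FZR1, UBE2S and HMMR did not.

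**Figure D4:**
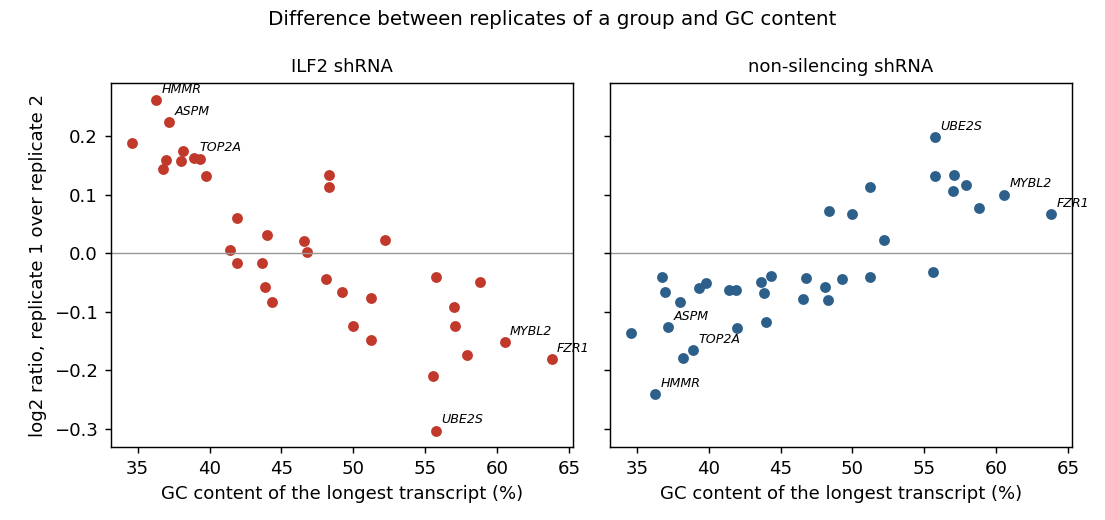
Log2 ratio of replicate 1 to replicate 2 of each of the 36 genes against the GC content of its longest transcript (%), ILF2 shRNA on the left and non-silencing shRNA on the right. The ratio goes down with GC content with ILF2 shRNA (Pearson -0.83) and up with non-silencing shRNA (0.82).

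Other genes of mitosis were taken from lists that do not overlap with the 36. Beside the counts that follow, 10.1% of all tested genes fell and 10.2% rose. The shares of all genes that fell with a library left out are those given above. Of 13 tested genes for other mitotic kinases, 9 fell and 0 rose around a median of -0.29, among them the centriole kinase gene PLK4 (-0.40) and the checkpoint kinase gene BUB1B (-0.34). Without non-silencing replicate 2 only 3 of the 13 fell, and BUB1B was not among them (edgeR adjusted p = 0.057). Of 13 genes for the control of CDK1, 7 fell and 0 rose, led by those of its inhibitory kinases, WEE1 (-0.46; edgeR adjusted p = 1.5e-06) and PKMYT1 (-0.44; edgeR adjusted p = 5.5e-06). The 3 CDC25 phosphatase genes, chosen after their values were seen because their products act against these kinases, had log2 changes of -0.32 (CDC25A), -0.24 (CDC25B) and 0.01 (CDC25C, on chromosome 5). Of them CDC25A and CDC25B fell (edgeR adjusted p = 0.00037 and 0.0091), but CDC25A was not called without non-silencing replicate 2 (0.091) nor CDC25B when replicate 1 of that group was left out (0.38). Kinetochore and checkpoint genes fell in 15 of 27 cases, with a median of -0.24 and 0 rises, among them CENPF (-0.38) and CENPI (-0.52). Of those 27 genes 6 fell without non-silencing replicate 2. Of 45 DNA replication genes 34 fell and 0 rose, with a median of -0.25. The falls among replication genes numbered 17 without non-silencing replicate 1 and 12 without replicate 2 of that group.

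A further 3 lists held APC/C subunits and proteins that act with or on the APC/C, the MuvB core and its partners, and other cytokinesis genes. Differences between lists were not tested. Falls came to 6.25%, 16.7% and 39.1% of these lists in that order, beside 10.1% of all tested genes. Rises came to 10.2% of all tested genes. The falls of the APC/C and MuvB lists and the 2 cytokinesis rises lie near the share of all genes. Of 16 other APC/C genes 1 fell and 0 rose, and their median log2 change was -0.015; the gene that fell was FBXO5, whose product, EMI1, inhibits the APC/C (-0.32; edgeR adjusted p = 0.0011). It was not called without non-silencing replicate 2, where 0 of the 16 fell. Of 12 genes of the MuvB core and its partners, 2 fell and 0 rose, with a median of 0.04. They were the pocket protein gene RBL1 (-0.54; edgeR adjusted p = 2.0e-08) and the MuvB subunit gene LIN9 (-0.34; edgeR adjusted p = 0.0018), and LIN9 was not called without non-silencing replicate 2 (edgeR adjusted p = 0.087). Of 23 other cytokinesis genes 9 fell and 2 rose, with a median of -0.10. SEPTIN9 fell by 0.44 on the log2 scale, and MYH10, the gene of non-muscle myosin IIB, rose by 0.37 (edgeR adjusted p = 5.3e-05). With a library left out, the median of this list ran from -0.12 (without ILF2 shRNA replicate 1) to -0.088 (without non-silencing replicate 2). Fewer of its genes fell, and fewer rose, without ILF2 shRNA replicate 2 or without either non-silencing library.

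**Figure D5:**
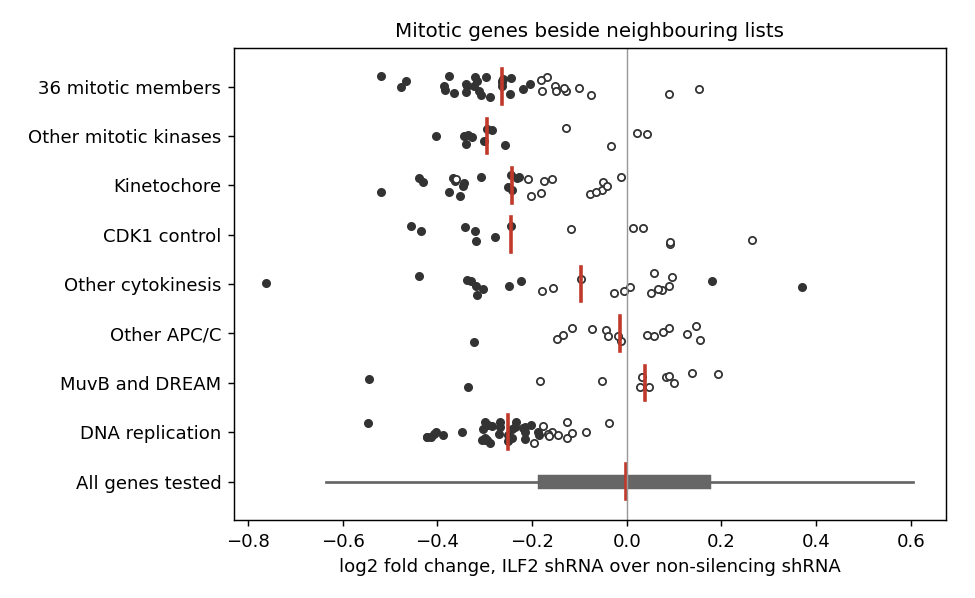
Log2 change (ILF2 shRNA over non-silencing shRNA) of each gene in the 36 mitotic genes and 7 other lists, filled where called, with red bars at the medians; the bottom row gives the 5th, 25th, 75th and 95th percentiles of all genes tested. Medians run from -0.29 for other mitotic kinases to 0.04 for MuvB and DREAM genes, against -0.0015 for all genes.

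Some of these genes have processed copies elsewhere in the genome, and reads from a gene and a near-identical copy may be split or lost in counting. The most counted copy in any library had 1393 fragments for UBE2S, whose own count ran from 1183 to 1861, so the level of UBE2S is uncertain. It had 943 fragments for CKS1B, with an own count of 2438 to 3518, and 1144 for CDC20, with an own count of 8149 to 11881. None of the 36 genes shares exon bases with another gene on its strand in the annotation used.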

How the data were processed

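The authors deposited raw counts of fragments per gene, 1 file per library. Per the file headers they were made with featureCounts 1.4.6-p2 from paired fragments on the reverse strand (strand option 2), with exons summed by gene over the Ensembl release 75 annotation of GRCh37. STAR 2.3.0 and SAMtools 0.1.19 are named in the submitters' processing notes, whereas the design text names Tophat2. The recorded command has no option to count fragments placed at several sites, which this counter by default drops. Groups and replicate numbers came from the sample titles. Of 63677 Ensembl gene IDs, 55665 were matched to a symbol, and the 8012 others kept their IDs.

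Counts of ILF2 shRNA and non-silencing shRNA libraries were tested against each other with edgeR 4.0.16 under R 4.3.3, using TMM scaling, the filterByExpr filter at its minimum count of 10, robust dispersions and the two-sided quasi-likelihood test. Group was the only term, and p-values were adjusted by the Benjamini-Hochberg method over all 19142 genes tested. Calls need an adjusted p below 0.05. SE came from the F statistic. With 2 residual degrees of freedom, the spread is shared across genes, and its coefficient of variation was 5.38%. CPM values are counts over the TMM-scaled library size, and CPM per kb divides them by the exon length in the files. On simulated counts for this comparison, over 18832 genes, 46% of planted log2 changes of 0.3 were found, 88% of those of 0.5 and 100% of those of 1. Of 176 calls 9 were false. Every simulated gene had the same dispersion and was drawn independently, without the GC trends seen between real replicates. These shares may therefore not carry over to the real counts.

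Alternatives were DESeq2 1.42.0, limma-voom (limma 3.58.1), DESeq2 size factors in edgeR, 2 other filters on low counts, the replicate number as a block, small RNA and mitochondrial genes left out, and fits without each single library. Chosen after seeing the data were crossed numbers, a fit without chromosome 5, and a fit whose offsets remove each library's smooth dependence on GC content and on exon length (mgcv 1.9.3; 97.1% of tested genes had a GC value). The members and all gene lists were chosen with earlier results of these data known. All 36 members are named, and of each other list up to 2 called genes with the smallest adjusted p; genes named outside that rule are marked. Promoter sequences are RefSeq's, on GRCh38.p14, matched by symbol.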

Additional observations from a re-analysis of the deposited data

How the results depend on the processing

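The falls of the 36 mitotic genes, 25 as reported, numbered 25 to 26 with DESeq2, limma-voom, DESeq2 size factors or either other filter. With small RNA and mitochondrial genes left out they numbered 25. The falls were 25 of 33 without chromosome 5, a fit that takes out CCNB1, PTTG1 and HMMR. They numbered 32 after the GC and length correction and 12 to 25 with each library left out in turn. The median log2 fold change of the 36 genes, or of the 33 in the fit without chromosome 5, stayed between -0.28 and -0.26 in every alternative run. No member rose as reported; 1 did after the GC and length correction, and 0 to 1 with a library left out. All genes called numbered 3885, and 2099 to 3721 with a library left out.

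The replicate numbers are not stated to pair the libraries, and same-numbered libraries did not deviate together over all tested genes (correlation of deviations -0.14). Over the 36 members they deviated in opposite directions, with a Pearson correlation of -0.72 and opposite signs in 26 genes. With the replicate number as a block, 2588 genes were called in all, and 6.78% of all genes fell and 6.74% rose. Beside these shares, 18 members and 18 of the 45 replication genes fell, and 1 of the other cytokinesis genes rose. With the numbers crossed, more genes were called in all, 5728 against 3885 in the reported fit. In that crossed fit 32 members fell and 1 rose. Of the other APC/C genes 2 fell and 1 rose, and 2 MuvB and DREAM genes rose. The shares of all genes that fell or rose in the crossed fit were not worked out, so these counts have no background beside them.

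In the other lists, the GC and length correction gave 2 falls and 1 rise for APC/C genes and 2 rises for MuvB and DREAM genes. In that fit 14.9% of all genes fell and 14.8% rose. With no low-count filter 1 cytokinesis gene rose. With a library left out, falls numbered 0 to 1 for APC/C genes, 3 to 9 for other kinases, 3 to 9 for other cytokinesis genes, 1 to 3 for MuvB and DREAM genes, 6 to 18 for kinetochore genes and 12 to 31 for replication genes. Rises numbered 1 to 2 for other cytokinesis genes and 0 to 1 for MuvB and DREAM genes. With a library left out, HMMR ran from -0.044 (without ILF2 shRNA replicate 1) to 0.22 and was -0.027 without non-silencing replicate 1, and FZR1 ran from -0.17 to 0.014 (without ILF2 shRNA replicate 1). The median of the APC/C list ran from -0.032 to 0.027 (without non-silencing replicate 2), with 0.00020 without ILF2 shRNA replicate 2, and that of MuvB and DREAM genes from -0.010 (without ILF2 shRNA replicate 2) to 0.046. The cause was not tested. In the simulated counts, with 2 libraries a group, 46% of planted log2 changes of 0.3 were found. That share is over 50 planted genes among 18832 and was not worked out for the members alone. The simulated counts lacked the GC trends of the real libraries. In the reported fit the smallest fall called among the members was -0.20 (RACGAP1). The members not called lay between -0.18 (UBE2S) and 0.15 (PTTG1), and whether real changes of that size were missed was not tested. The smallest count of a member in any library was 1183 fragments, for UBE2S.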
